A study of Mus musculus with 6 samples.

Results

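The Id family in these T cells consisted of 3 genes, Id1, Id2 and Id3, taken by symbol from the 32285 genes counted in 4 single-cell libraries of ovalbumin-specific CD4+ T cells from mouse Peyer's patches. They were chosen by family name, with their UMI levels by state and genotype in these same libraries already known, so the values below describe the 3 genes. A p-value given for one of them describes the fit and supports nothing further. Id1 lay mostly in a follicular helper-like state and was higher in the mutant libraries, Id2 was lowest in that same state and averaged lower in the mutant libraries, and Id3 was spread over most states and overlapped between the genotypes over all T cells.

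Id proteins are small helix-loop-helix proteins without the basic region that contacts DNA. They bind E proteins (the products of Tcf3, Tcf4 and Tcf12) and so keep these activators off their E-box sites. Ascl2, a factor that drives follicular helper T (Tfh) cells, works as a partner of E proteins. Id1 and Id3 are textbook targets of Smad1 and Smad5 downstream of bone morphogenetic proteins, Id3 is also raised through Egr factors after T cell receptor signals, and Id2 and Id3 are known to restrain the Tfh programme in CD4+ T cells.

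The mutant donors were heterozygous for the M318R knock-in (TgfbrIWT/mut), a Loeys-Dietz syndrome model in Tgfbr1, which encodes the type I receptor for TGF-β, and the other donors were wild type (WT). All donors carried the OT-II receptor on a Rag-deficient background (OTII+/+RAG-/-), which makes every T cell see the same ovalbumin peptide. Bead-enriched CD4+ donor cells were given intravenously to CD45.1 WT hosts that drank 1.5% ovalbumin for 7 days. On day 8 the donor-type cells of their Peyer's patches (CD45.2+ and CD45.1-) were sorted as CD4+, CD8- and TCRβ+. The host cells thus carried no mutation, and donor age was not given. There were 2 mutant and 2 WT libraries, made with the 10x 3′ kit, version 2. Whether each library was a separate animal was not stated, so p-values measure the spread between libraries, which may be technical. The 2 WT libraries alone carried antibody tags, so genotype and handling cannot be told apart.

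The Id genes are short and lie on separate chromosomes (GRCm38 with GENCODE M21 gene models). Id1 (ENSMUSG00000042745) lies on the plus strand at chr2:152736251-152737410. Id2 (ENSMUSG00000020644) lies on the minus strand at chr12:25093799-25097140. Id3 (ENSMUSG00000007872) lies on the plus strand at chr4:136143497-136145755. The 120 coding bases in which the 3 genes were most alike are shown because they are the sequence that makes these genes a family. Each stretch lies within 1 exon, at chr2:152736518-152736637 (plus), chr12:25095783-25095902 (minus) and chr4:136144002-136144121 (plus), and is read 5′ to 3′ on the strand of the gene, with bases shared by all 3 in capitals.
Id1: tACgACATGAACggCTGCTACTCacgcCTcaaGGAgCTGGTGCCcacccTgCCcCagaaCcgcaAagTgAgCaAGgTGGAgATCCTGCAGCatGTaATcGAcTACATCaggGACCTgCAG
Id2: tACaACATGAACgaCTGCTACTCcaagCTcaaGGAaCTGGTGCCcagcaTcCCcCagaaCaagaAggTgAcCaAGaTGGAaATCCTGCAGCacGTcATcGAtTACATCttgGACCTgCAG
Id3: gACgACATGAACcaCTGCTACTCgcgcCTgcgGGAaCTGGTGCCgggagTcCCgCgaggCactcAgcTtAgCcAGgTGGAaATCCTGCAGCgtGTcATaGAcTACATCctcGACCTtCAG
In this stretch 77 of 120 bases were the same in all 3 genes. Id1 and Id2 shared 98 bases (81.7%), Id1 and Id3 85 (70.8%), and Id2 and Id3 86 (71.7%). The longest run of identical bases over the whole transcripts was 11 for Id1 and Id2, 12 for Id1 and Id3, and 19 for Id2 and Id3. The 19-base run lay within the last 300 bases of the transcripts. In coding sequence the longest runs were 11, 11 and 15 bases for the same pairs, so coding likeness came in short runs of identical bases.

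After filters, 2988 T cells were kept: 886 in mutant 1, 183 in mutant 2, 1285 in WT 1 and 634 in WT 2, with 1709724 to 12093713 unique molecular identifiers (UMIs, counted molecules) per library and median depths of 8615.5 to 9029 UMIs per cell. Levels are given as UMIs of a gene per 1000000 UMIs of all genes (CPM). Mutant 2 was the smallest library and gave the least precise values. The sort matched the cells: Cd3e was seen in 98.4 to 99.7% of kept cells, Cd4 in 83.6 to 90.0% and Cd8a in 0 to 0.546%. Pairs of libraries shared 7 to 18 barcodes. Every library held both Xist (399 and 460 CPM in mutant, 478 and 541 in WT) and Y-linked transcripts such as Ddx3y (73.4 and 62.6 in mutant, 44.8 and 45.9 in WT), so RNA of both sexes was in each, at levels that did not overlap between the genotypes; their part in the Id values was not tested. Epithelial markers summed to 19.0 and 12.9 CPM in mutant 1 and 2, against 9.59 and 13.8 in WT 1 and 2, with 6 to 10 of 12 markers seen in a library. B cell markers summed to 295 and 343 CPM in the mutant libraries, against 170 and 234 in WT, with 5 to 8 of 9 seen. Tgfbr1 itself had 27.9 and 17.4 CPM in mutant cells and 31.5 and 26.0 in WT cells, and since 3′ counts do not read a base change in the coding sequence, this does not check the genotype labels.

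The kept cells formed 10 T cell clusters. Clusters 2 (521 cells, led by Sostdc1, Tox2 and Bcl6) and 3 (401 cells, led by BC018473, Ascl2, Ctsl, Stx11 and Id1) were Tfh-like by their markers. Cluster 1 (549 cells, Klf2, Ccr7 and S1pr1) was naive or memory-like, and cluster 7 (120 cells, Eomes and Nkg7) cytotoxic-like. Cluster 0 (736 cells) was led by Angptl2, Gpr183, Lpar3 and Egr3, cluster 4 (224 cells) by Xist, the transcript of the inactive X, with Slc45a4, Mavs and Id2, cluster 5 (192 cells) by Srm, Fabp5 and Tnfrsf9, and cluster 8 (93 cells) by Gzmb, Ccr9, Cxcr6, Il10 and Foxp3. Cluster 6 (126 cells) was shallow, with a median of 3329.5 UMIs and high mitochondrial counts. The Id genes took part in making these clusters: Id1 ranked 5 among the leading genes of cluster 3, and Id2 ranked 4 in cluster 4, 19 in cluster 0 and 42 in cluster 1. Levels across clusters are therefore given as description with no test.

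Id1 was a gene of few cells. It had 648 UMIs in all, in 136 of 2988 T cells. The libraries held 364 and 77 Id1 UMIs (mutant 1 and 2), against 126 and 81 (WT 1 and 2), in 68 and 11 cells against 35 and 22. A cell with any Id1 carried on average 5.35 and 7 UMIs in the mutant libraries and 3.6 and 3.68 in WT, and the single highest cell held 42 and 25 UMIs in the mutant libraries, against 22 and 10 in WT. The 10 highest cells held 98.7% of the Id1 UMIs of mutant 2, so that library's Id1 value rests on very few cells. By contrast, 2003 cells (67%) held Id2 and 1004 (33.6%) held Id3, with 8165 and 2310 UMIs.

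Across states, 607 of the 648 Id1 UMIs (93.7%) lay in the 2 Tfh-like clusters: 93.1% and 100% in mutant 1 and 2, and 97.6% and 84.0% in WT 1 and 2. In Tfh-like cluster 3 the Id1 level was 122 and 197 CPM in mutant 1 and 2, against 77.2 and 60.9 in WT 1 and 2 (114 ± 61.0 over the 4 libraries, SD). In Tfh-like cluster 2 it was 24.4 and 9.0 CPM, against 28.2 and 10.1 (17.9 ± 9.80). Every library was higher in cluster 3 than any library in cluster 2, and this order includes what Id1 itself added to cluster 3.

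Outside the Tfh-like clusters, Id1 was near the limit of the counts. It had 0 UMIs in the 736 cells of cluster 0 and in the 549 naive or memory-like cells, which allows a share of cells with a UMI of up to 0.408% and 0.546%, and 0 in clusters 6, 7 and 8. Cluster 5 held 13 Id1 UMIs and reached 1.18 and 27.4 CPM in WT 1 and 2, the only libraries with 20 or more of its cells. A small proliferating-like cluster of 26 cells held 25 Id1 UMIs in 2 cells of mutant 1 and 2 UMIs in WT 2. When the 3 Id genes were left out of the clustering, 83.2% of Id1 UMIs still lay in the Tfh-like cluster. The share then was 86.0% and 54.5% in mutant 1 and 2, against 96.0% and 77.8% in WT 1 and 2, and the level in a proliferating-like cluster was 80.8 CPM (mean of 2 libraries), against 62.6 ± 20.3 in the Tfh-like cluster.

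**Figure D1:**
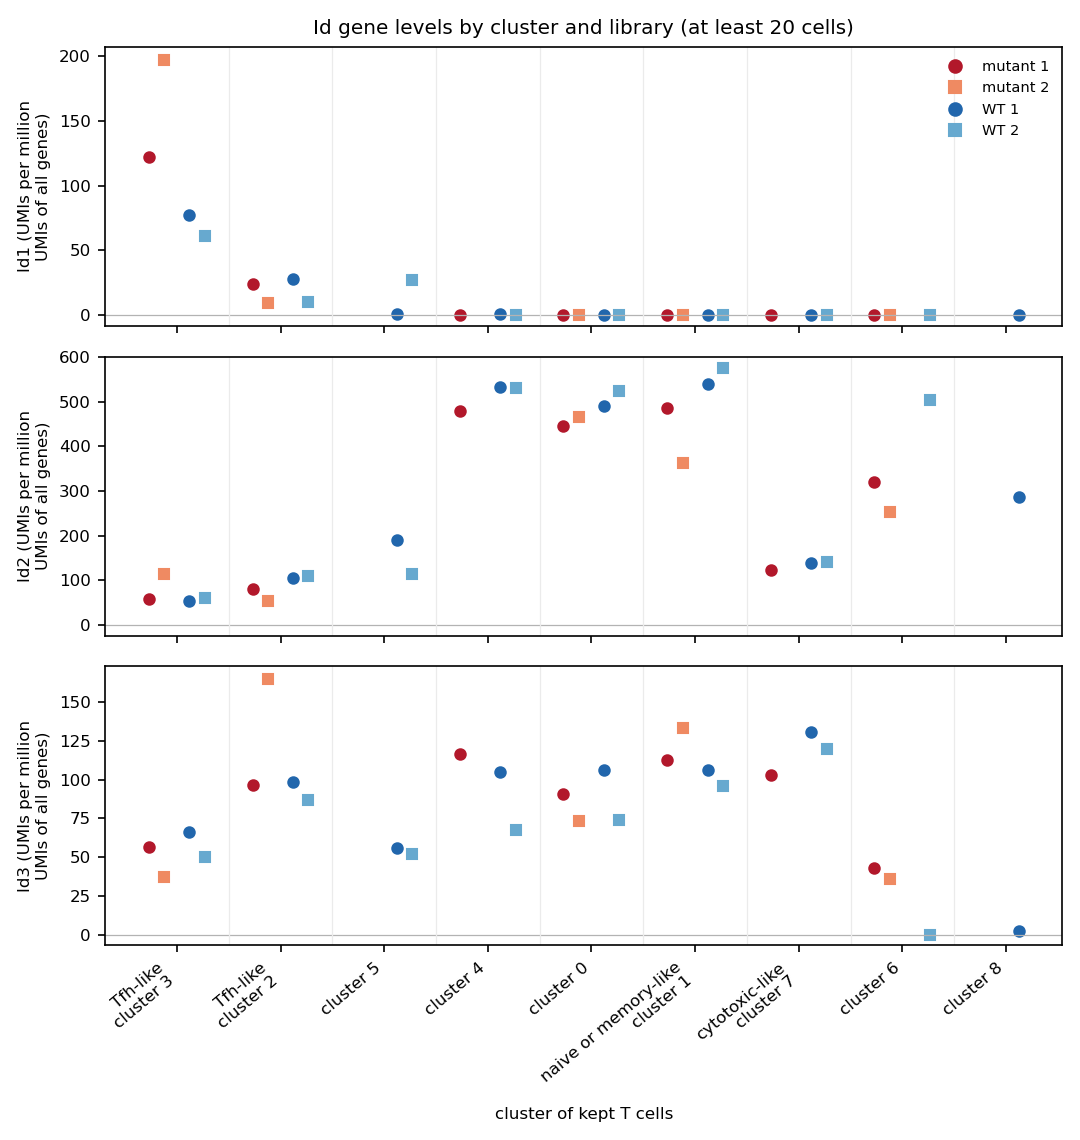
Levels of Id1, Id2 and Id3 (CPM) in each T cell cluster, 1 point per library with at least 20 cells of that cluster, mutant libraries left of WT. Id1 reaches 60.9 to 197 CPM in Tfh-like cluster 3 and sits at 0 in clusters 0 and 1, while Id2 is lowest in the Tfh-like clusters and Id3 is lowest in clusters 6 and 8.

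Id2 had the opposite order. It was highest in cluster 4 (514 ± 30.7 CPM, SD over 3 libraries), naive or memory-like cluster 1 (491 ± 92.7, 4 libraries) and cluster 0 (481 ± 33.6, 4 libraries), whose ranges over libraries overlapped. Cluster 6 followed at 359 ± 131 and cluster 8 at 287 in the 1 library with enough cells. Cluster 5 (152 ± 53.0) and cytotoxic-like cluster 7 (134 ± 9.02) lay clear below them, and Tfh-like clusters 2 (87.4 ± 25.7) and 3 (71.4 ± 28.9) clear below cluster 7. Taking both Tfh-like clusters against all other T cells, Id2 was 66.5 against 391 CPM in mutant 1, 86.1 against 371 in mutant 2, 84.8 against 420 in WT 1 and 88.9 against 439 in WT 2. The Tfh-like level was thus 0.170, 0.232, 0.202 and 0.202 of the level in the other T cells. All 4 libraries showed this low Id2 level, and the ratio over all libraries was 0.188 with the Id genes in the clustering and 0.188 without them.

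Id3 was spread more evenly. Its mean level was 118 ± 14.0 CPM in cytotoxic-like cluster 7, 112 ± 15.9 in naive or memory-like cluster 1, 112 ± 35.8 in Tfh-like cluster 2, 96.4 ± 25.8 in cluster 4 and 86.0 ± 15.6 in cluster 0, with overlapping ranges. Cluster 5 (54.0 ± 2.36, 2 WT libraries) and Tfh-like cluster 3 (52.5 ± 12.1) lay below these. The gap was narrow, since cluster 3 reached 66.2 CPM and cluster 4 fell to 67.4. The 2 Tfh-like clusters did not overlap in Id3. Cluster 2 had 96.5 and 165 CPM in mutant 1 and 2 and 98.7 and 86.9 in WT 1 and 2. Cluster 3 had 56.7 and 37.3 in mutant 1 and 2 and 66.2 and 50.04 in WT 1 and 2. With the Id genes left out of the clustering, the single Tfh-like cluster had 88.0 ± 16.7 CPM of Id3 and overlapped its neighbours in level. Cluster 8, which held the Gzmb, Ccr9, Cxcr6 and Foxp3 cells, had 4 Id3 UMIs in 93 cells, or 2.41 CPM in the 1 library with enough cells. Id3 over all Tfh-like cells was 0.838, 1.17, 0.928 and 0.935 of the level in other T cells in mutant 1, mutant 2, WT 1 and WT 2, so these ratios fell on both sides of 1.

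Grouping cells by a single state gene, with each cell thinned to 4000 UMIs, gave a view that does not depend on clusters. Cells with an Ascl2 UMI had 132 and 68.2 CPM of Id1 in mutant 1 and 2 and 88.2 and 83.3 in WT 1 and 2, against 8.93 and 13.1 in mutant and 2.33 and 5.45 in WT cells without Ascl2. The means were 92.9 ± 27.4 with Ascl2 and 7.44 ± 4.61 without it (SD, n = 4 libraries), a ratio of 12.5. Id1 was also higher in all 4 libraries in cells with Il21, the cytokine by which Tfh cells help B cells (33.0 against 10.7 CPM), with Cxcr5, the follicle homing receptor (30.5 against 14.8), and with the interferon-induced Isg15 (30.1 against 11.7). It was close to 0 with Ccr7 (0.239 against 22.2) and Klf2 (1.05 against 21.5), which mark cells that recirculate through lymph and blood. Il4, the other main Tfh cytokine, gave 24.0 against 17.8 CPM, higher in 2 of 4 libraries.

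Id2 ran the other way in the same cells. Cells with Ascl2 had 58.3 and 102 CPM of Id2 in mutant 1 and 2 and 88.2 and 99.0 in WT 1 and 2, against 306 and 319 in mutant and 393 and 370 in WT cells without it, which averaged 86.9 ± 19.996 against 347 ± 41.3. Id2 was lower in all 4 libraries with Cxcr5 (206 against 352 CPM), Il4 (225 against 338) and Il21 (253 against 352). It was higher in all 4 with Ccr7 (486 against 283) and Klf2 (451 against 286). Id3 was split by Klf2, at 144 against 83.9 CPM and higher in all 4 libraries, and by the gut-homing receptor Ccr9, at 29.5 against 92.1 and lower in all 3 libraries that had 20 or more such cells. Cxcr6, a tissue-residence receptor, gave 28.3 against 94.1 CPM of Id3 in the 2 libraries with enough cells, and Foxp3, the regulatory T cell factor, 39.0 against 102 in 1 library. The activation receptor Tnfrsf9 also went with less Id3 (64.3 against 104 CPM, lower in 4 of 4), whereas Ascl2 did not split it clearly (75.2 against 97.0, lower in 3 of 4).

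**Figure D2:**
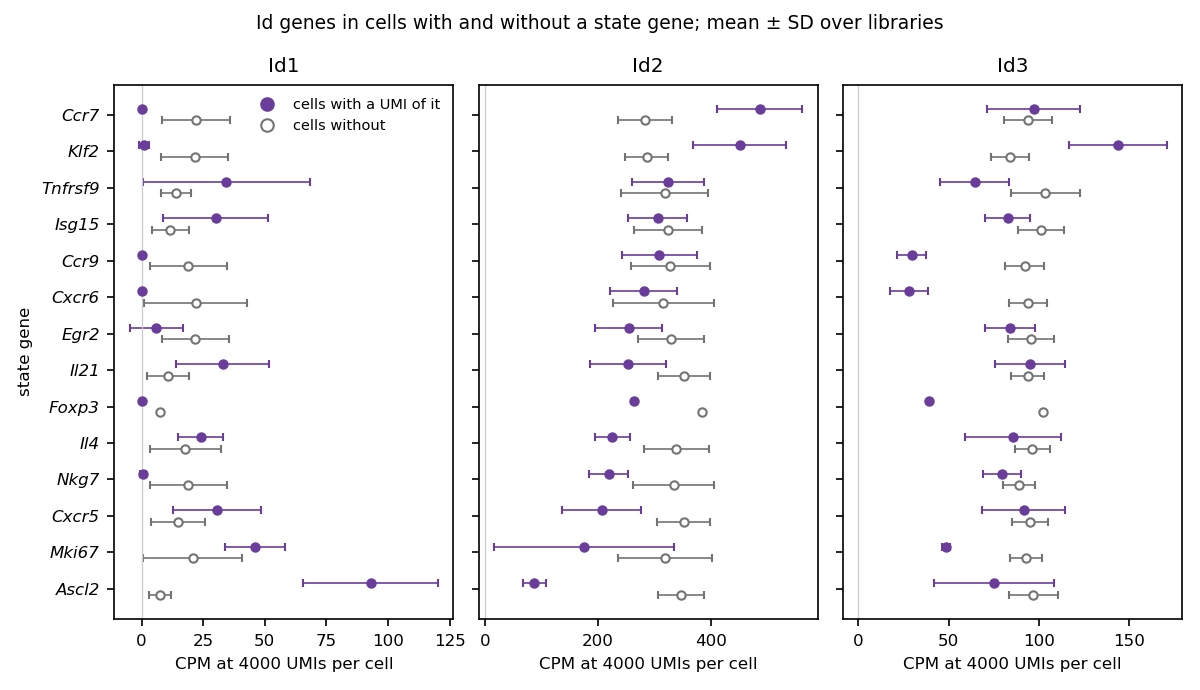
Id1, Id2 and Id3 levels (CPM at 4000 UMIs per cell) in cells with a UMI of each state gene (filled) and in cells without one (open). Points are means over the 2 to 4 libraries with at least 20 cells that hold the gene and bars are SD (Foxp3 has 1 library and no SD). Ascl2-positive cells stand out with 92.9 CPM of Id1 and 86.9 of Id2, against 7.44 and 347 in cells without Ascl2.

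Within the Tfh-like cells, those with an Id1 UMI at 4000 UMIs numbered 45 and 8 in mutant 1 and 2, and 19 and 12 in WT 1 and 2. Of these, 37 and 8 in mutant and 13 and 10 in WT lay in cluster 3, which Id1 helped to draw. The contrast below therefore also carries the difference between clusters 3 and 2, and it was not made within a single cluster. Cells with Id1 had more Ascl2 than the other Tfh-like cells in all 4 libraries (284 against 110 CPM on average, a ratio of 2.58). The gap was small in mutant 2, at 156 against 133 CPM with 8 Id1-positive cells. Cells with Id1 also had more Il21 (410 against 302). They had less Sh2d1a (206 against 362) and less Slamf6 (181 against 317) in all 4 libraries. The products of this pair, SAP and Ly108, support contact with B cells. Id3 averaged 43.5 against 101 CPM, a ratio of 0.432, but mutant 1, with 45 Id1-positive cells, hardly differed (72.2 against 76.1). It was 62.5 against 122 in mutant 2, and 39.5 against 107 and 0 against 97.2 in WT 1 and 2. Il4 was 106 against 156 CPM and lower in 4 of 4, though nearly level in WT 1 (158 against 161). Id2 was 90.4 against 80.6 and higher in only 2 of 4. Before thinning, Id1-positive Tfh-like cells were deeper, with medians of 11269 and 13642 UMIs in the mutant libraries and 12275 and 12246 in WT, against 9297 and 10587 in mutant and 9895 and 8786 in WT cells without Id1. Their epithelial markers summed to 10.4 and 6.22 CPM in the mutant libraries and 7.25 and 7.84 in WT, against 11.8, 12.8, 5.42 and 11.9 in the Tfh-like cells without Id1, in the same library order.

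**Figure D3:**
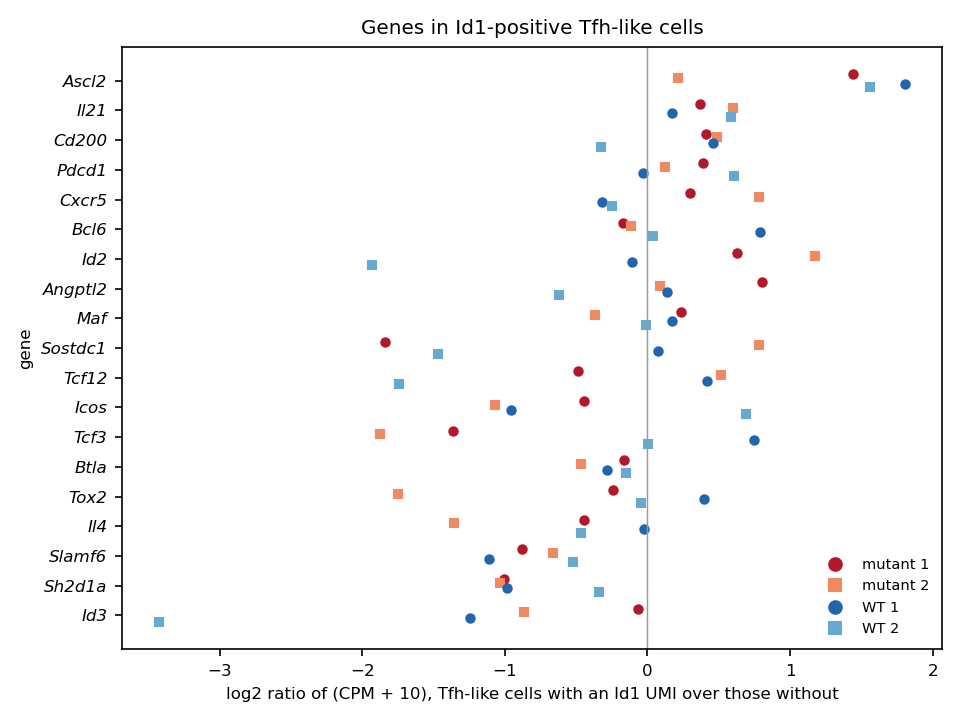
Log2 ratio of (CPM + 10) in Tfh-like cells with an Id1 UMI over those without, 1 point per library, for Tfh markers and helix-loop-helix genes with a mean of at least 20 CPM in both groups. Ascl2 and Il21 lie right of 0 in all 4 libraries, and Id3, Sh2d1a, Slamf6, Il4 and Btla lie left of 0 in all 4. Some of these points are close to 0, such as Ascl2 in mutant 2, Id3 in mutant 1 and Il4 in WT 1.

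The share of cells with a UMI was compared at the same depth of 4000 UMIs, which left 824 and 156 mutant cells and 1249 and 598 WT cells, with exact 95% intervals that cover counting error only. Id1 was seen in 5.70% (4.22 to 7.51) and 5.13% (2.24 to 9.85) of cells in mutant 1 and 2, against 1.60% (0.981 to 2.46) and 2.34% (1.29 to 3.90) in WT 1 and 2. Both mutant shares were above both WT shares, with a ratio of means of 2.75, although the interval of mutant 2 overlapped those of WT. At full depth the shares were 7.67 and 6.01%, against 2.72 and 3.47%. Among Tfh-like cells alone, at 4000 UMIs, Id1 was seen in 11.2 and 14.5% of mutant cells, against 7.92 and 5.85% of WT cells. Inside cluster 3 the shares overlapped, at 16.8 and 32% in mutant and 17.8 and 13.5% in WT. In the other T cells it was seen in 0.475% and in 0 of 101 cells of the mutant libraries, which allows up to 2.97%, and in 0.0991 and 0.509% of WT cells.

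Id2 was seen in 43.7 and 48.7% of thinned mutant cells, against 59.2 and 55.0% of WT cells, a ratio of means of 0.809. Within classes the genotypes lay closer in percentage points, though not in relative terms among Tfh-like cells. Among Tfh-like cells the Id2 shares were 20.1 and 20% in mutant and 24.2 and 27.8% in WT, and among the other T cells 66.3 and 64.4% in mutant and 67.5 and 69.2% in WT. Id3 was seen in 20.9 and 28.2% of mutant cells and 24.0 and 19.7% of WT cells, so the genotypes overlapped. For comparison, the 64 cells of the left-out B cluster, pooled over libraries and not thinned (median 4869 UMIs), held Id1 in 1.56% and Id2 in 14.1%. Whether this was free RNA or RNA of those cells was not tested. Id3 was seen in 40.6% of those cells, and B cells are known to express it.

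**Figure D4:**
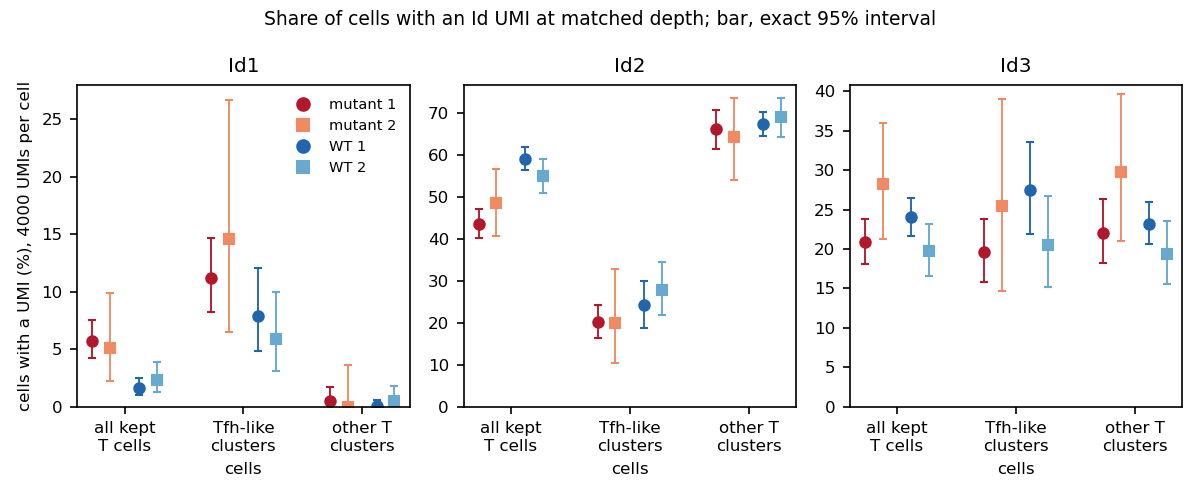
Share of cells (%) with a UMI of Id1, Id2 or Id3 after thinning every cell to 4000 UMIs, 1 point per library, bars exact 95% binomial intervals, mutant libraries left of WT. For Id1 both mutant libraries (5.70 and 5.13%) lie above both WT libraries (1.60 and 2.34%) over all T cells; Id3 shares overlap.

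Co-detection of each pair was compared with independent detection, over all cells and within clusters. At 4000 UMIs, Id1 and Id2 were seen together in 15 and 3 mutant cells and in 7 and 1 WT cells. That was 0.730 and 0.770 of the number that independent detection gives in mutant 1 and 2, and 0.592 and 0.130 in WT 1 and 2. Computed within clusters, the ratio was 1.60 and 1.88 in the mutant libraries and 1.66 and 0.344 in WT, so the shortfall over all cells was not present inside clusters in 3 of 4 libraries. Id1 and Id3 shared 10 and 2 mutant cells and 2 and 0 WT cells, which is too few to place. Without thinning, where depth was not matched, their mean ratio was 1.02 over all kept T cells and 1.10 within clusters. Id2 and Id3 were seen together in 87 and 26 mutant cells and 186 and 66 WT cells. That was 1.16 and 1.21 times the independent number in mutant and 1.05 and 1.02 times in WT. The mean was 1.11 ± 0.09 (SD, n = 4), and 1.05 ± 0.04 within clusters. All 3 genes were seen together in 2 and 1 mutant cells and in 0 WT cells. No Id gene was seen in 43.1 and 37.2% of mutant cells, against 30.8 and 34.1% of WT cells.

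Over all kept T cells, Id1 was the only Id gene called between the genotypes. On edgeR's normalised scale (CPM with TMM library scaling) it had 47.0 and 43.3 CPM in mutant 1 and 2, against 10.7 and 14.2 in WT 1 and 2, or 45.1 ± 2.62 and 12.4 ± 2.52 (SD, n = 2 each). The log2 fold change, mutant over WT, was 1.91 ± 0.17 (SE). Fitted with edgeR over 10731 genes and adjusted by Benjamini-Hochberg, its p was 2.12e-05. Of all genes tested, 1.54% were called, 0.951% as higher and 0.587% as lower in mutant cells, and 22.7% had both mutant libraries above both WT libraries, as Id1 did. The call held with each library left out in turn (1.68 to 2.10), without the highest Id1 cell of each library (1.86) and without cells that held an epithelial marker UMI (1.86, adjusted p = 6.54e-05). It did not hold when the cluster of 25 epithelial barcodes was kept in, where the log2 fold change was 2.01 with an adjusted p of 0.10 and only 1 gene was called.

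Id2 had 227 and 243 CPM in mutant 1 and 2, against 355 and 313 in WT 1 and 2 (235 ± 11.3 and 334 ± 29.8, SD, n = 2 each). Both mutant libraries were below both WT libraries, as for 23.3% of genes, and the log2 fold change of -0.51 ± 0.14 did not pass the threshold (adjusted p = 0.0752 in edgeR). Without mutant 2 it passed, at -0.56 with an adjusted p of 0.0397. Id3 had 80.8 and 85.4 CPM in mutant and 93.7 and 74.4 in WT, a log2 fold change of -0.03 ± 0.14 (adjusted p = 0.947) whose sign turned in 7 other settings and in 2 of the 4 fits that left out a library. The number of Id2 UMIs per Id3 UMI was 2.81 and 2.84 in the mutant libraries, against 3.79 and 4.20 in WT. The log2 ratio differed by -0.50 between the genotypes. An exact two-sided permutation test of 2 against 2 libraries cannot go below 0.333, which was its value.

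The mix of states also differed between the libraries. Tfh-like cells were 46.0 and 32.8% of kept cells in mutant 1 and 2, against 18.9 and 33.3% in WT 1 and 2, so this share overlapped. Cluster 3, where Id1 was highest, made up 25.3 and 15.8% of mutant cells and 5.68 and 11.8% of WT cells, and within the Tfh-like cells its share was 54.9 and 48.3% in mutant, against 30.04 and 35.5% in WT. Naive or memory-like cells, with much Id2, made up 5.76 and 10.9% of mutant cells, against 28.9 and 16.7% of WT cells. The shallow, mitochondria-rich cluster 6 made up 7.22 and 13.7% of mutant cells, against 1.01 and 3.79% of WT cells, and without it the log2 fold change was 1.98 for Id1 and -0.51 for Id2. In a sum over a library, fewer cells of a type and less RNA per cell cannot be told apart, so values are also given within classes and with equal weights. With clusters 0 to 3 given equal weight, the log2 fold change was 0.89 for Id1 (adjusted p = 0.0435, edgeR), -0.22 for Id2 (adjusted p = 0.601) and 0.15 for Id3.

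Within the Tfh-like cells, Id1 had 86.4 and 107 CPM in mutant 1 and 2, against 46.6 and 32.2 in WT 1 and 2 (96.8 ± 14.8 and 39.4 ± 10.2, SD, n = 2 each). The log2 fold change was 1.22 ± 0.19 with an adjusted p of 0.00493 over 9314 genes, of which edgeR called 0.387%, and 18.5% had both mutant libraries higher. Leaving out WT 2 gave 1.01 with an adjusted p of 0.0543, and leaving the Id genes out of the clustering gave 0.80 with 0.0653, so that neither of these passed the threshold. Inside cluster 3 the Id1 level was 127 and 197 CPM in mutant, against 78.1 and 61.4 in WT, with a log2 fold change of 1.10 ± 0.23 that missed the threshold (adjusted p = 0.0851 in edgeR, where 0.0524% of 7630 genes were called and 18.4% had both mutant libraries higher). Inside cluster 2 it was 25.4 and 8.96 CPM in mutant and 28.3 and 10.1 in WT, with no separation (0.11 ± 0.34). The mutant libraries thus lay above the WT libraries in cluster 3 CPM and overlapped them in cluster 2, a contrast that was not tested. The share of cluster 3 cells with an Id1 UMI overlapped between the genotypes. At full depth it was 22.3 and 31.0% in mutant 1 and 2, and 30.1 and 20% in WT 1 and 2. The cluster 3 values also carry the part that Id1 itself had in drawing that cluster.

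Id2 and Id3 gave no genotype call within any class. In Tfh-like cells Id2 had 69.3 and 85.0 CPM in mutant and 84.5 and 88.4 in WT, which overlapped (-0.22 ± 0.16). In cluster 0 it had 457 and 464 CPM in mutant, against 490 and 528 in WT (-0.14 ± 0.13, with 0.0236% of 8491 genes called). In naive or memory-like cells it had 520 and 369 CPM in mutant, against 542 and 585 in WT (-0.30 ± 0.17, with 0.154% of 6508 genes called), and in cluster 2 it had 83.9 and 53.7, against 104 and 111 (-0.49 ± 0.19, with 0.671% of 8501 genes called). Cluster 3 went the other way, with 59.5 and 115 CPM of Id2 in mutant and 53.8 and 61.4 in WT, which overlapped (0.38, adjusted p = 0.877 in edgeR). The mutant libraries were below the WT libraries in cluster 0, naive or memory-like cells and cluster 2, each time without a call (adjusted p = 0.884, 0.747 and 0.349 in edgeR). Such an order was found for 20%, 19.9% and 19% of the genes tested there. For Id3 the largest within-class difference was 0.33 in cluster 2, with 100 and 164 CPM in mutant and 98.9 and 86.9 in WT (adjusted p = 0.644, edgeR), and in naive or memory-like cells it had 121 and 135 CPM in mutant, against 106 and 97.5 in WT (0.29, adjusted p = 0.829). A test of whether the genotype effect differed between Tfh-like cells and cluster 0 gave -0.08 ± 0.16 for Id2 and 0.09 ± 0.21 for Id3 (adjusted p of 1 for both, edgeR, 0.0634% of 9460 genes called), and Id1, with 0 UMIs in cluster 0, could not be fitted.

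**Figure D5:**
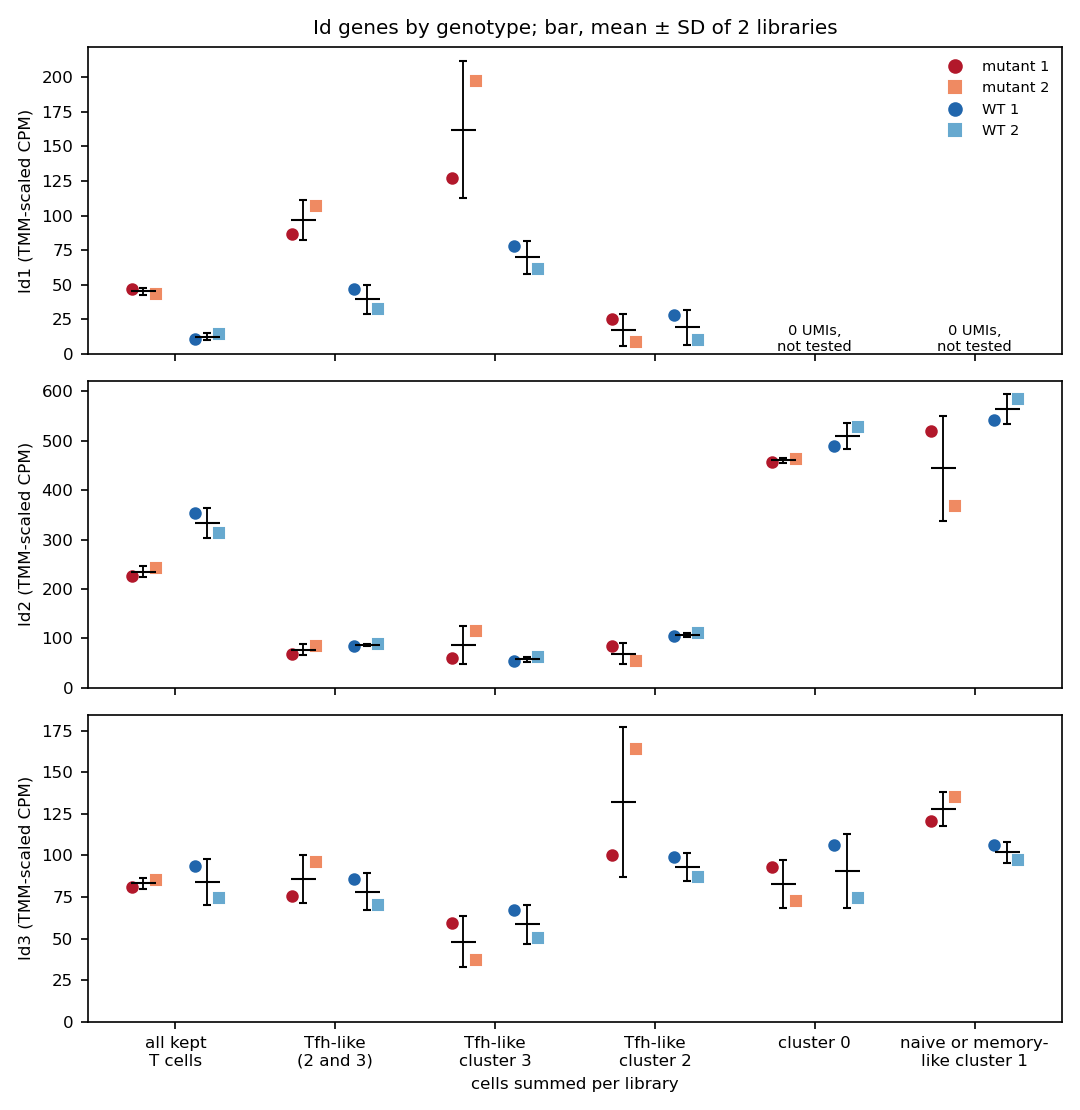
Id1, Id2 and Id3 levels (CPM with TMM scaling) per library, mutant left of WT, summed over all kept T cells and over single classes; the horizontal bar is the mean of the 2 libraries of a genotype and the error bar the SD. Id1 is higher in both mutant libraries over all T cells (45.1 against 12.4 CPM) and over Tfh-like cells (96.8 against 39.4), while Id3 overlaps between the genotypes in most classes.

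The genes that Id proteins act on were read from a list of 12 helix-loop-helix partners, 6 of which had enough counts to test. Ascl2 rose, with 102 and 58.5 CPM in mutant 1 and 2, against 25.7 and 44.1 in WT 1 and 2 (log2 fold change 1.31 ± 0.23, adjusted p = 0.00665 in edgeR), and none fell, where 0.951% of all genes tested were called as higher and 0.587% as lower. The E proteins had no call: Tcf3 had 28.1 and 38.8 CPM in mutant and 46.1 and 41.4 in WT (adjusted p = 0.236). Tcf12 had 101 and 127 in mutant and 86.0 and 89.4 in WT (adjusted p = 0.284), and Tcf4 8.13 and 12.9 in mutant and 11.3 and 10.5 in WT (adjusted p = 0.776). The list's median log2 fold change was 0.42, against -0.01 over all genes tested. The call was lost without mutant 1 (0.78, adjusted p = 0.171) and with equal cluster weights (0.40, adjusted p = 0.339). Ascl2 was among the markers that gave cluster 3 its Tfh-like name, so a higher level in Tfh-like cells was built in. It had 187 and 143 CPM there against 7.11 and 3.00 in other T cells of mutant 1 and 2. In WT 1 and 2 it had 115 and 112 against 0.317 and 4.41. Id4, the remaining gene of the family, was in that list and had too few counts to test.

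Of 22 genes in a list of receptors, Smads and Smad regulators of the TGF-β family, 13 were tested. Of these, 0 rose and 2 fell (0.951% and 0.587% over all genes), with a median of -0.24. Smad7, the inhibitory Smad that TGF-β itself induces, had 19.2 and 27 CPM in mutant, against 71.7 and 45.8 in WT (-1.46 ± 0.22, adjusted p = 0.00171 in edgeR). Skil, a co-repressor of Smads, had 47.8 and 42.7 CPM in mutant, against 81.0 and 79.5 in WT (-0.81 ± 0.14, adjusted p = 0.00665). Each of these calls was lost in 1 fit that left out a library, Smad7 without mutant 1 (adjusted p = 0.0953) and Skil without WT 1 (adjusted p = 0.0936). By state, Smad7 was low in Tfh-like cells, with 3.91 and 2.82 CPM there against 35.0 and 46.0 in other T cells of the mutant libraries, and 11.4 and 11.9 against 86.4 and 65.0 in WT. Smad1 and Smad5, which carry bone morphogenetic protein signals to Id genes, had 18.1 and 10.7 CPM in mutant and 14.8 and 16.2 in WT, and 15.4 and 19.1 in mutant and 17.6 and 21.8 in WT (adjusted p = 0.951 and 0.663).

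Of 9 genes of the T cell receptor pathway upstream of Id3, all were tested, 0 rose and 2 fell (0.951% and 0.587% over all genes), with a median of -0.003. These were Fos (-1.65 ± 0.19, adjusted p = 0.000224 in edgeR), a subunit of AP-1, and Nr4a1 (-0.94, adjusted p = 0.0174), an immediate early gene, whose call was lost without WT 1 (-0.60), without either mutant library and with equal cluster weights (-0.40). Egr1 had a log2 fold change of -0.003 and no call (adjusted p = 0.996 in edgeR). Egr2 and Egr3 had log2 fold changes of 0.17 and 0.12 and no call, and both turned negative without mutant 1 (-0.34 and -0.31). Of 13 genes that E proteins are known to raise in T cells, 8 were tested, 0 rose and 1 fell (0.951% and 0.587% over all genes), with a median of -0.41: the chemokine receptor Ccr9 (-1.03, adjusted p = 0.0460 in edgeR), which lost its call without WT 1 (-0.44) and was 0.19 with equal cluster weights. Cxcr5, which E proteins and Ascl2 raise, had 108 and 100 CPM in mutant and 62.8 and 79.0 in WT (0.57, adjusted p = 0.0584), just short of the threshold. None of the 6 list calls held with the epithelial cluster kept in. By DESeq2's test Ascl2 and Ccr9 were not called (adjusted p = 0.703 and 0.887), and with doublets kept in Ascl2, Nr4a1 and Ccr9 were not (0.0504, 0.0541 and 0.114, edgeR).

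The genes whose pattern over states was most like that of each Id gene were ranked by Pearson's r over 28 sums of a cluster within a library, after centring within each library, among 2857 genes. The sums share libraries and clusters, so r is a description. Id1 was most like Ascl2 (0.93), BC018473 (0.92), Pkm (0.91), Stx11 (0.87) and Cebpa (0.86), and least like Btg1 (-0.92), Chd7 (-0.89), Lef1 (-0.89), Cytip (-0.88) and Elf1 (-0.86), with Id1 at 0 in most sums. Id2 was most like S1pr1 (0.89), the receptor for exit from lymphoid tissue, then Slamf1 (0.87), Anxa6, Btg1 and Gpr183 (0.86 each), and least like Ppp1r14b (-0.89), Ywhae (-0.85), Stx11 and Cxxc5 (-0.84 each) and Dars (-0.83). Id3 had looser likenesses, with Tmsb10 (0.82), Rp9 (0.79), Skp1a (0.77), Ephx1 (0.75) and Eif4b (0.74) highest and Sla (-0.77), Brcc3 (-0.75), Mdfic (-0.74), Inpp5d (-0.73) and Arhgap30 (-0.71) lowest. Stx11 and Btg1 stood at opposite ends for Id1 and Id2. Between the Id genes r was -0.73 for Id1 and Id2, -0.11 for Id1 and Id3, and -0.07 for Id2 and Id3.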

How the data were processed

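The deposited files held UMI counts per gene and barcode, which the authors made from reads; the submitters' processing notes name Cell Ranger 6.0.0, Seurat 4 and mm10. Antibody tag rows and 2 WT hashtag samples were not analysed here. Barcodes with at least 500 genes and at most 10% mitochondrial UMIs were kept (3108 of 4803), 31 Scrublet doublet calls removed, and the rest clustered with scanpy 1.11.5 (2000 variable genes before receptor, ribosomal and similar genes were removed, 30 components, 15 neighbours, Leiden resolution 0.8). A cluster was named from at least 3 markers of a type among its 50 leading genes. B (64 cells) and epithelial (25 cells) clusters were left out; this, unscaled components and naming details were set after seeing the data.

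Counts were summed per library and tested with edgeR 4.0.16 (quasi-likelihood, TMM, filterByExpr, mutant over WT, adjusted p under 0.05), with DESeq2 1.42.0 as an alternative. On simulated counts of the comparison over all kept T cells (10731 genes), 77% of 2-fold and 95% of 4-fold changes were recovered, with 11 false calls. Every simulated gene had the same dispersion (0.0109) and no shift in cell mix, so these rates need not hold for the real counts. Thinning drew 4000 UMIs per cell. A count of 0 allows up to 3 counts of the total. The 3 members, the lists of partners and all tests were chosen with earlier results of these data known. Genes named were the Id genes, list members past the threshold, the E proteins, Smad1, Smad5, Egr2 and Egr3, and the 5 most and 5 least alike in pattern among genes of at least 50 CPM, on log2(CPM + 10). The comparison of Id1 by state gene, Cxcr5 and Egr1 among the list genes, and the state genes and Tfh markers printed were chosen after their values were seen. Gene positions come from GENCODE M21 on GRCm38.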

Additional observations from a re-analysis of the deposited data

Results flagged for a closer look

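Id UMIs also appeared in barcodes that the T cell comparisons left out, above the highest WT library in 7 cases; these levels rest on few barcodes and their source was not tested. In the epithelial cluster Id1 reached 450 CPM in mutant 2, where 1 barcode held its 36 UMIs, against 103 CPM in WT 2, and WT 1 had no such barcode. Id2 in that cluster was 94.5 CPM in mutant 1, against 75.5 in WT 2, and Id3 was 254 CPM in mutant 1 and 338 in mutant 2, against 165 in WT 2. Among barcodes that failed the gene or mitochondrial limits, mutant 2 had 189 CPM of Id1, against at most 25.1 in a WT library; 86 of those 101 UMIs lay in 1 barcode, and 100 lay in barcodes with an epithelial marker UMI. Id3 in the same barcodes was 127 CPM in mutant 2, against at most 44.8 in WT. Id2 in the B cluster was 73.2 CPM in mutant 1, against at most 70.9 in WT.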

How the results depend on the processing

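Of the values under alternative settings, 433 were unchanged, 35 moved, 29 reversed, 11 passed the threshold newly and 36 lost it. Unchanged meant direction and call for fold changes, and direction for the Id2 to Id3 ratio. For counts of calls it meant a similar number, and for levels, shares and co-detection a value within the SD. Over all kept T cells 165 genes were called. This became 395 with the replicate block, 63 with DESeq2's test, 419 with no filter, 82 without TMM, 75 with doublets, 1 with the epithelial cluster, 0 with the epithelial and B clusters, 37 with equal cluster weights and 92 without the shallow cluster (44 to 265 leaving out 1 library). Id1 there lost its call with the epithelial cluster (2.01) or both clusters (2.02), and spanned 1.68 to 2.10 leaving out 1 library. Id2 passed with the block (-0.51, adjusted p = 0.00935, edgeR), with no filter (-0.53) and without mutant 2 (leave-one-out range -0.59 to -0.41). Id3 turned positive at a 5% mitochondrial limit (0.0043), with doublets (0.0071), the epithelial cluster (0.0677), both clusters (0.0455), without epithelial-marker cells (0.0239), with equal weights (0.15) and without the shallow cluster (0.0026; leave-one-out -0.17 to 0.16).

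In Tfh-like cells 36 calls became 96 with the block and 11 to 127 leaving out 1 library; Id1 spanned 1.01 to 1.54, and 0.80 with Id genes out of the clustering, where Id3 was -0.0528 (leave-one-out -0.0561 to 0.28). Calls were 5 to 23 in naive or memory-like cells, 10 to 76 in cluster 2 and 2 to 16 in cluster 3 (16 with the block) leaving out 1 library; in cluster 0, 3 to 99, with 70 under the block and 0 under DESeq2's size factors. Id1 was -0.16 with the block in cluster 2 (leave-one-out -1.18 to 1.06) and 1.13 (adjusted p = 0.00869, edgeR) in cluster 3 (0.87 to 1.49). Id3 spanned -0.36 to 0.21 in cluster 0 and -0.66 to 0.0549 in cluster 3. Among other named genes, Ccr9 was 0.19 with equal weights, and Smad1 was -0.0270 with DESeq2's test, -0.0749 at the 5% limit and -0.0121 without the shallow cluster. Leaving out 1 library gave -0.53 to 0.23 for Smad1, -0.34 to 0.43 for Egr2, -0.31 to 0.35 for Egr3 and -0.44 to 0.23 for Tcf4. The difference between replicates 1 and 2 in WT had r = 0.034 over genes with that in mutant (2 pairs). With a single difference per genotype, this cannot settle whether equal replicate numbers were paired. The share of Id1 UMIs in Tfh-like clusters was 83.2% with Id genes out of the clustering and 85.2% at resolution 1.2. Id2 and Id3 co-detection within clusters was 1.12 at 2000 UMIs. The causes were not tested. Clusters kept in with B cells, the shallow cluster and epithelial-marker cells were added after seeing the data. Depth limits Id1 most in mutant 2, with 183 kept cells and 77 Id1 UMIs.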
